A study of Homo sapiens with 6 samples.

Results

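The genes described here encode ligands, receptors, SMAD transcription factors, antagonists and ID targets of the TGF-beta and BMP pathways. A list of 52 such genes was taken, and a gene counted as measured where a probe assigned to its symbol alone was detected, with a detection p-value under 0.05, on 3 or more of the 6 arrays. By that rule 35 of the 52 genes were measured, among 11646 genes in the whole series. The other 17 (TGFB1, TGFB2, TGFB3, BMP2, BMP4, BMP6, BMP7, INHBA, INHBB, INHBE, GDF15, LTBP1, TGFBR1, BMPR1A, ACVR2B, NOG and FST) had no kept probe assigned to them and were not analysed here, so nothing is said of their level.

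The cells were SN12C, a human renal cell carcinoma line which the series' title counts among NF2-deficient tumor cells, and RNA was hybridised to Illumina bead arrays. The knockdown cells carried the inducible vector pTripz with an shRNA (short hairpin RNA) against YAP and pTripz with one against TAZ, together with GFP-luc. The control cells carried pTripz and GFP-luc. Both received doxycycline, which switches the hairpins on, for 3 days or longer, and both were without serum for the last 24 hours before harvest. Each arm has 3 arrays, described by the series as technical repeats, so the p-values measure spread between arrays and not between cultures. The sources used here name no clone, and give no hairpin sequence or second hairpin per target.

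Ligands of this family bind pairs of type I and type II receptor kinases at the cell surface. Type I receptors for TGF-beta and activin phosphorylate SMAD2 and SMAD3, those for BMPs phosphorylate SMAD1 and SMAD5, and both kinds of SMAD enter the nucleus with SMAD4. TGF-beta is secreted in a latent form that LTBP proteins tether to the matrix, BMPs are held back by secreted binding proteins, and the ID genes are well-known early targets of BMP signalling.

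YAP1, targeted by a hairpin, had log2 intensities of 7.33, 6.77 and 6.56 on the knockdown arrays and 8.47, 8.26 and 8.47 on the control arrays, and fell in the knockdown arm (adjusted p = 0.000355 in limma). No kept probe was assigned to WWTR1, which encodes TAZ, so its knockdown was not checked. Between 19674 and 20971 probes were detected per array. Of 12 renal and epithelial markers 7 were measured. The keratin genes KRT8, KRT18 and KRT19, the renal factor PAX8, CDH2 and VIM were detected on all 6 arrays, and EPCAM on 2 knockdown arrays and 1 control array. PAX2, LHX1, CDH16, CA9 and CDH1 had no kept probe assigned to them. Of 8 fibroblast markers 4 were measured, with summed raw intensities of 1016.9 to 1367.6 on the knockdown arrays and 1462.3 to 2786.1 on the control arrays. LUM, a defining fibroblast gene, was detected on 3 knockdown and 0 control arrays, and COL1A1 on 0 knockdown and 3 control arrays, while PDGFRB and THY1 fell. Both LUM and COL1A1 lay near background in each arm, and with background correction LUM was at least 1.17-fold higher and COL1A1 at least 1.34-fold lower. The 7 measured renal and epithelial markers summed to 9126.1 to 11518.4 on the knockdown arrays and 11241.8 to 16836.6 on the control arrays. VIM and CDH2, which mesenchymal cells also express, make up most of that sum on the arrays of both arms. KRT19 fell 8.28-fold, KRT8 2.10-fold and VIM 1.37-fold, CDH2 rose 2.44-fold, and KRT18, PAX8 and EPCAM did not pass. Of 6 endothelial markers 0 were measured, and of 6 blood cell markers CD14 and CD68 were, with sums of 1952.7 to 2340.9 on the knockdown arrays and 1662.8 to 3149.2 on the control arrays. The part of any such marker shift in the results below was not tested, and in RNA from whole cultures fewer cells of a type and less RNA per cell cannot be told apart.

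Of the 35 measured genes, 13 rose and 5 fell in the knockdown arm, and 17 did not pass the threshold. The threshold was an adjusted p of 0.05 in limma, with Benjamini-Hochberg adjustment over all 11646 genes. Of all genes 39.8% were called, 20.3% higher and 19.5% lower. The share called among these 35 was 51.4%, and their median log2 change was 0.17, beside 0.03 over all genes. Most of the 35 did not enter through 1 arm, since 29 were detected on all 6 arrays. BMP5 and SMURF1 were detected on 0 control arrays, and GREM1 on 0 knockdown arrays. In 21 of the 35 genes, the 18 called ones among them, all values of one arm lay beyond those of the other, as in 50.9% of all genes. With median scaling over all probes the calls of BMP5, LTBP3, TGIF1, TMEFF2, FSTL3 and ID1 held, 6 of 18, and 1236 genes were called in all. The share of higher calls among the called genes of the list was then 83.3% of only 6 calls, beside 72.2% of 18 with quantile normalization. Over all called genes that share was 44.4%, beside 51.1% with quantile normalization. With median scaling over the probes detected on every array, chosen after the data were seen, 15 of the 18 held.

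**Figure D1:**
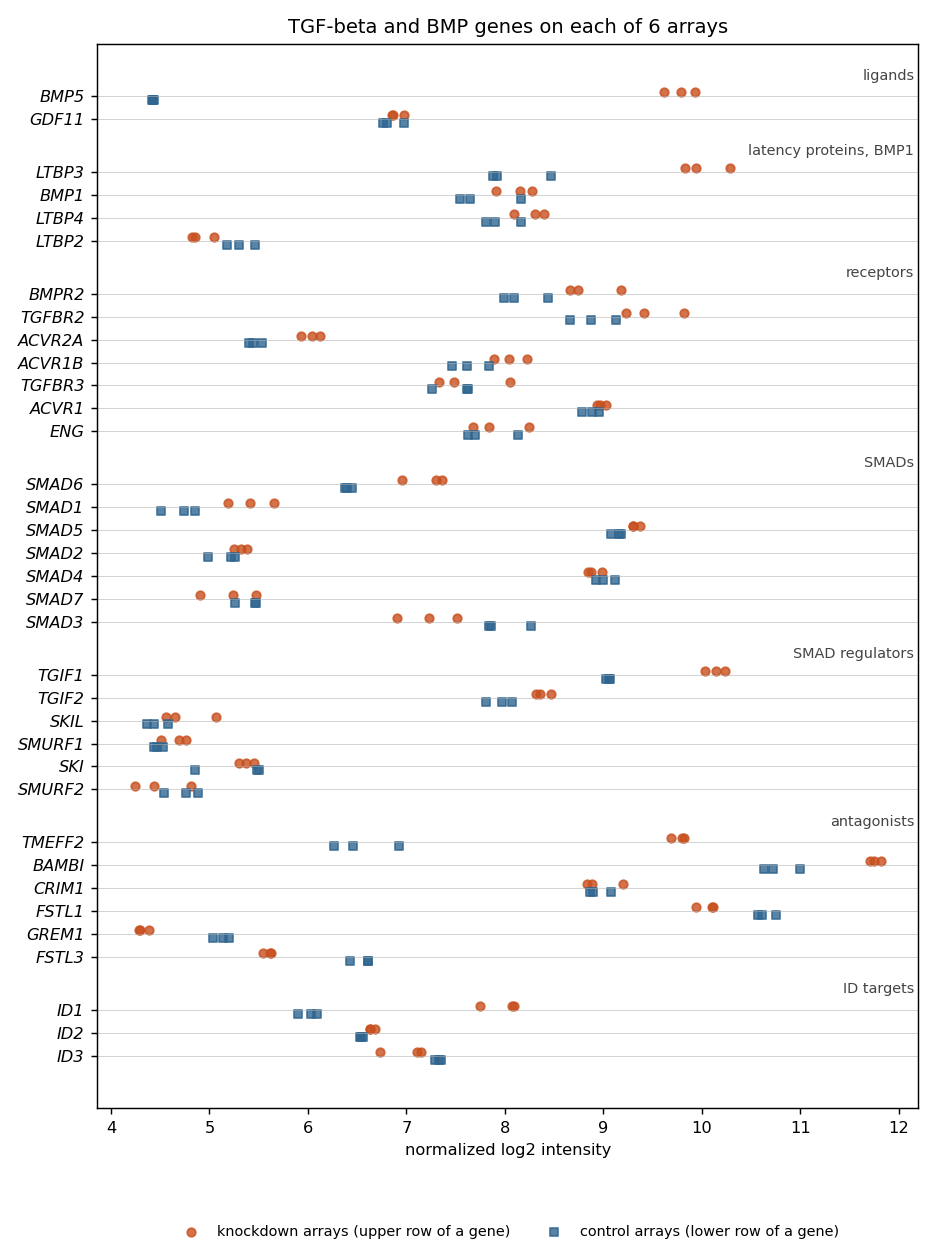
Normalized log2 intensity (horizontal axis) of the 35 measured genes on each array, by class, with the 3 knockdown arrays (circles) above the 3 control arrays (squares) of a gene. BMP5 and TMEFF2 show the widest gaps, and BMP5 lies between 9.62 and 9.93 on the knockdown arrays and between 4.42 and 4.44 on the control arrays.

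**Figure D2:**
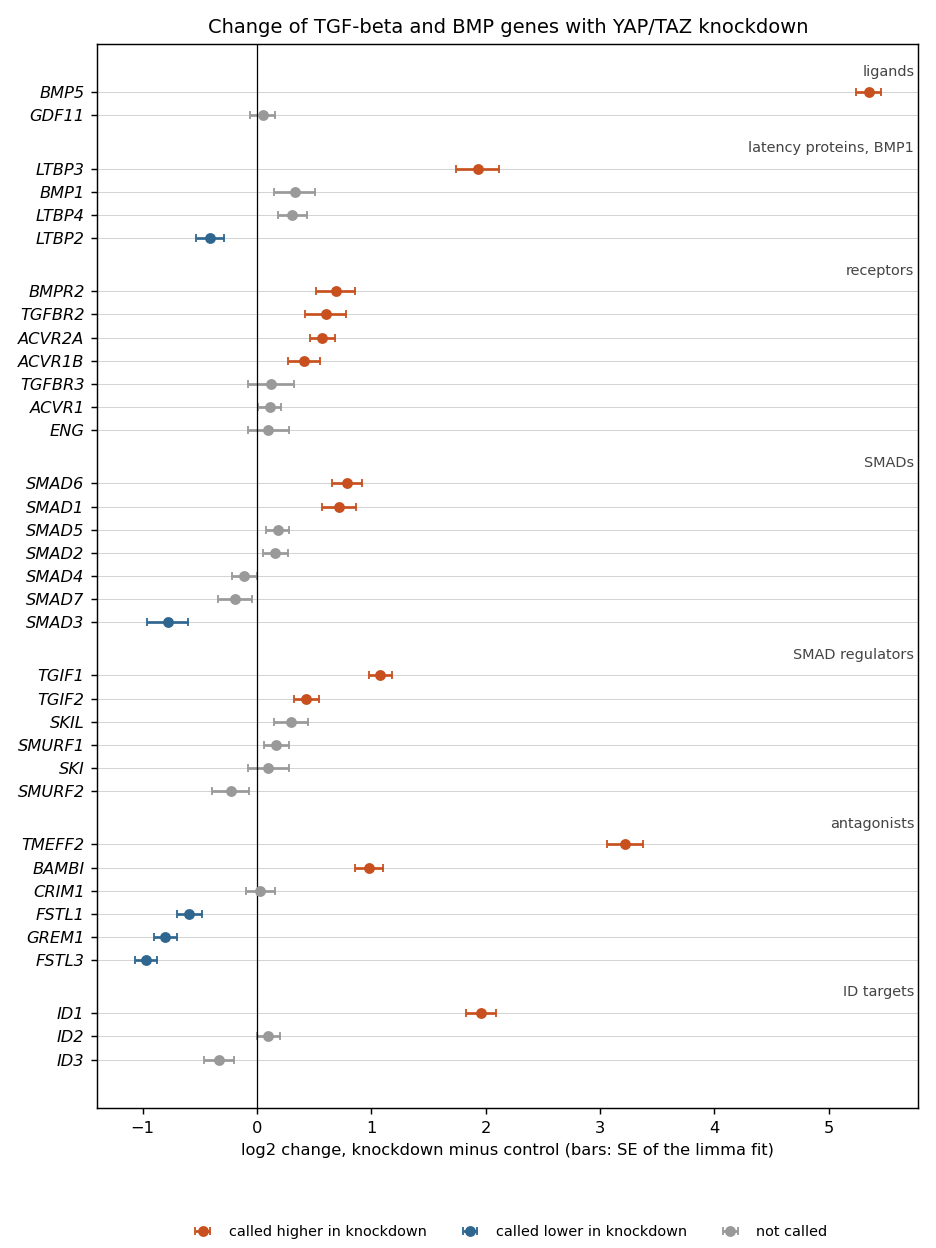
Log2 change, knockdown minus control, of the same 35 genes by class, with bars for the SE of the limma fit. The 13 genes called higher lie right of 0, from 0.41 for ACVR1B to 5.35 for BMP5, and the 5 called lower lie between -0.97 and -0.41.

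Among ligands, 2 of 13 were measured, of which 1 rose and 1 did not pass, a share called of 50% beside 39.8% over all genes. BMP5, a bone morphogenetic protein with known roles in skeletal development, rose at least 37.7-fold with the background correction used here. Its raw intensity, before any correction, was 1114.3, 769.3 and 856.8 on the knockdown arrays and 87.8, 102.5 and 91.3 on the control arrays. The normalized log2 intensity was 9.79, 9.62 and 9.93 on the knockdown arrays and 4.43, 4.42 and 4.44 on the control arrays. The control values were not well above background on any of the 3 arrays, so the fold is a bound, computed against the lowest signal of a detected probe. The fitted log2 change was 5.35 ± 0.11 (SE, n = 3 arrays each), with an adjusted p of 4.75e-08 in limma, but it is not itself a bound. The rise was 10.2-fold without background correction and 14.6-fold with normexp on the intensities alone, so the bound does not hold across corrections.

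GDF11, an activin-like ligand, had log2 intensities of 6.98, 6.85 and 6.86 on the knockdown arrays and 6.98, 6.80 and 6.76 on the control arrays, and these overlap. Its log2 change of 0.05 ± 0.11 did not pass (adjusted p = 0.766 in limma), and a second, dimmer probe gave -0.18.

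The promoter stretches of BMP5 and of TMEFF2, which showed the largest rises of the 35, are given because they belong to the genes with the widest gap between the arms. Each runs from 120 bases before to 20 bases after the annotated transcription start, in RefSeq's GRCh38.p14, and the strand is that of the gene. BMP5 lies at chr6:55875571-55875710 on the minus strand, and TMEFF2 at chr2:192194914-192195053 on the minus strand.
BMP5: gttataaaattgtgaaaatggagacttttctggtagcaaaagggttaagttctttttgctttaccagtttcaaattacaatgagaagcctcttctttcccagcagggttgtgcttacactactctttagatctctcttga
TMEFF2: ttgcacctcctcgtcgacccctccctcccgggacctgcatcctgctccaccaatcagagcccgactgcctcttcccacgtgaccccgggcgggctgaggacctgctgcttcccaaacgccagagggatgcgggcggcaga
The BMP5 stretch holds 36.4% G and C, against 67.9% in that of TMEFF2. Neither holds any of 3 motifs searched on both strands, with overlapping matches allowed. These were GGAATG, the core of the site bound by TEAD factors (the DNA-binding partners of YAP and TAZ), GGCGCC, a GC-rich element bound by SMAD1 and SMAD5, and GTCTAGAC, the palindromic SMAD box. The absence of a match says only that these letters are not in this window.

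Of the latency proteins, LTBP3 rose and LTBP2 fell, and LTBP4 and the protease BMP1 did not pass. LTBP3 binds latent TGF-beta in the matrix. Its log2 intensity was 10.29, 9.83 and 9.94 on the knockdown arrays and 8.47, 7.92 and 7.88 on the control arrays, with a clear gap between the arms. The log2 change was 1.93 ± 0.19, a 3.81-fold rise (adjusted p = 8.43e-05 in limma). A second LTBP3 probe gave 7.29, 6.74 and 7.04 on the knockdown arrays and 4.51, 4.23 and 4.23 on the control arrays, which were all below detection, a rise of at least 5.58-fold.

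LTBP2, a matrix protein of the same family that is not known to hold latent TGF-beta, was faint. It gave 4.82, 5.05 and 4.85 on the knockdown arrays and 5.46, 5.30 and 5.18 on the control arrays, and fell by 0.41 on the log2 scale (adjusted p = 0.0248 in limma). This call ended without background correction (adjusted p = 0.0956), with normexp on the intensities alone (0.0757) and when 1 of several arrays was left out (0.0671 without knockdown array 1, 0.0782 without knockdown array 3, 0.068 without control array 1 and 0.0612 without control array 2). Over all settings the adjusted p of LTBP2 ran between 0.0173 and 0.438. LTBP4, which also binds latent TGF-beta, gave 8.31, 8.09 and 8.40 on the knockdown arrays and 8.16, 7.81 and 7.90 on the control arrays, and the arms overlapped. Its log2 change of 0.31 did not pass (adjusted p = 0.1 in limma), although it did with the array number as a replicate block (0.0451), without control array 1 (0.0451) and without both arrays numbered 1 (0.0464). BMP1 is a procollagen-cleaving protease and not a growth factor despite its name, and its log2 change of 0.33 did not pass (adjusted p = 0.177). It passed without control array 1 (0.0243) and without both arrays numbered 1 (0.0241).

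The receptors that passed were all higher in the knockdown arm. Of 10 listed receptors 7 were measured, of which 4 rose and 0 fell, a share called of 57.1% beside 39.8% over all genes. All 4 calls ended with median scaling over all probes. BMPR2, the type II receptor for BMPs, gave log2 intensities of 9.18, 8.74 and 8.66 on the knockdown arrays and 8.44, 7.99 and 8.09 on the control arrays. The arms did not overlap, and its log2 change was 0.69 ± 0.17 (adjusted p = 0.0127 in limma). The other BMPR2 probe gave 0.42 and did not pass (adjusted p = 0.162). ACVR2A, a type II receptor for activins and some BMPs, gave 5.93, 6.12 and 6.04 on the knockdown arrays and 5.40, 5.53 and 5.44 on the control arrays. It rose by 0.57 on the log2 scale (adjusted p = 0.00285 in limma), or by 0.24 without background correction. Its second probe rose by 0.51.

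TGFBR2, the type II receptor for TGF-beta, had log2 intensities of 9.82, 9.41 and 9.23 on the knockdown arrays and 8.66, 9.13 and 8.87 on the control arrays. The lowest knockdown value lay close above the highest control value. TGFBR2 rose by 0.60 on the log2 scale (adjusted p = 0.0256 in limma), and its second probe by 0.58. ACVR1B, a type I receptor for activin, gave 8.04, 8.22 and 7.89 on the knockdown arrays and 7.46, 7.84 and 7.61 on the control arrays, with a log2 change of 0.41 (adjusted p = 0.0402). TGFBR2 missed the threshold without knockdown array 1 (0.0576), knockdown array 2 (0.0507), control array 1 (0.0812) or control array 3 (0.07), within a range of 0.0115 to 0.328, and ACVR1B without the same arrays (0.0627, 0.135, 0.114 and 0.11), within a range of 0.012 to 0.459.

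Among the receptors that did not pass were ACVR1, a type I receptor for BMPs, with log2 intensities of 8.97, 9.03 and 8.94 on the knockdown arrays and 8.78, 8.96 and 8.88 on the control arrays. The co-receptors TGFBR3 (betaglycan) and ENG (endoglin) had log2 changes of 0.12 and 0.10, with overlapping arms in both. A change not called leaves room for a difference larger than its SE, which was 0.20 for TGFBR3 and 0.18 for ENG.

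All 7 SMAD genes were measured, and 2 rose, 1 fell and 4 did not pass, a share called of 42.9% beside 39.8% over all genes. SMAD3, one of the SMADs activated by TGF-beta and activin receptors, fell. It had log2 intensities of 7.51, 6.90 and 7.23 on the knockdown arrays and 8.26, 7.86 and 7.84 on the control arrays. All knockdown values lay below all control values, and the log2 change was -0.78 ± 0.18 (adjusted p = 0.00823 in limma). SMAD2, its partner in that branch, was faint, with 5.25, 5.38 and 5.32 on the knockdown arrays and 4.98, 5.26 and 5.22 on the control arrays, and its log2 change of 0.16 did not pass (adjusted p = 0.301).

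In the BMP branch, SMAD1 rose. It gave log2 intensities of 5.19, 5.41 and 5.66 on the knockdown arrays and 4.51, 4.74 and 4.85 on the control arrays, of which 2 of 3 were detected. The change was 0.72 ± 0.15 on the log2 scale (adjusted p = 0.00483 in limma). SMAD1 was faint, and its change was 0.23 without background correction. Its call ended with median scaling over all probes (adjusted p = 0.0894 in limma). SMAD5, which has the same function, gave 9.37, 9.30 and 9.30 on the knockdown arrays and 9.18, 9.08 and 9.16 on the control arrays. Its arms did not overlap, yet the log2 change of 0.18 did not pass (adjusted p = 0.176), except without background correction (0.0454). Over all settings it ran between 0.0454 and 0.787. SMAD4, the partner shared by both branches, changed by -0.11 and did not pass.

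The inhibitory SMAD6, which blocks mainly the BMP branch, rose, and SMAD7, which blocks both branches, did not pass. SMAD6 gave log2 intensities of 6.96, 7.30 and 7.36 on the knockdown arrays and 6.38, 6.40 and 6.45 on the control arrays. The 3 control values were close together and below all knockdown values, and the log2 change was 0.79 ± 0.13 (adjusted p = 0.00138 in limma). SMAD7 had faint probes, with 5.24, 4.90 and 5.47 on the knockdown arrays and 5.47, 5.26 and 5.46 on the control arrays for the brighter one. The SMAD7 arms overlapped, and the log2 change was -0.19 (adjusted p = 0.359). Whether the changes of any 2 SMAD genes differ from each other was not tested.

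The SMAD6 promoter stretch is given because it holds the palindromic SMAD box, in capitals. It lies at chr15:66702116-66702255 on the plus strand of GRCh38.p14 (RefSeq), with 120 bases before and 20 after the start.
SMAD6: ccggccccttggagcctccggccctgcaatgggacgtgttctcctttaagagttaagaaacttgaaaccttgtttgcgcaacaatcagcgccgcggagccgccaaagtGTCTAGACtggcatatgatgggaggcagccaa
The first base of the box is at -12 from the start, and 0.202% of all 35116 promoter windows of 300 bases hold these letters. SMAD6 was the 1 called gene of the 18 with this box in a window. The match is a description of the letters and does not show binding.

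Of 6 SMAD regulators, 2 rose and 4 did not pass, a share called of 33.3% beside 39.8% over all genes. TGIF1, a homeodomain corepressor of SMAD2 and SMAD3, had log2 intensities of 10.03, 10.14 and 10.23 on the knockdown arrays and 9.06, 9.07 and 9.03 on the control arrays, a wide gap for values so close within each arm. It rose 2.11-fold, by 1.08 ± 0.10 on the log2 scale (adjusted p = 7.80e-05 in limma). The other 3 TGIF1 probes gave 1.07, 0.70 and 0.18, and the last of these, a faint one, did not pass (adjusted p = 0.276). Its paralogue TGIF2 gave 8.32, 8.47 and 8.36 on the knockdown arrays and 7.81, 8.07 and 7.97 on the control arrays, and rose by 0.43 on the log2 scale (adjusted p = 0.0147). TGIF2 missed the threshold without knockdown array 2 (0.055).

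The corepressors SKI and SKIL, which restrain SMAD-driven transcription, and the ubiquitin ligases SMURF1 and SMURF2, which mark SMADs and receptors for degradation, were dim. SKI was detected on all 6 arrays, SKIL on 3 knockdown arrays and 1 control array, SMURF1 on 3 knockdown and 0 control arrays, and SMURF2 on 1 knockdown and 2 control arrays. Log2 intensities of these 4 genes lay between 4.24 and 5.45 on the knockdown arrays and between 4.37 and 5.50 on the control arrays. Their log2 changes were 0.10 for SKI, 0.30 for SKIL, 0.17 for SMURF1 and -0.23 for SMURF2, none past the threshold. SKIL passed without both arrays numbered 1 (adjusted p = 0.0415 in limma), which was tried only once the data were known.

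Of 6 measured extracellular and membrane antagonists, 2 rose and 3 fell, a share called of 83.3% beside 39.8% over all genes. TMEFF2, a transmembrane protein with follistatin-like domains, gave log2 intensities of 9.80, 9.69 and 9.82 on the knockdown arrays and 6.26, 6.92 and 6.46 on the control arrays. Raw intensities were 1119.8, 799.4 and 802.3 on the knockdown arrays and 128, 254.1 and 145.5 on the control arrays. The arms were far apart, and control array 2 was the highest control. TMEFF2 rose 9.33-fold, by 3.22 ± 0.16 on the log2 scale (adjusted p = 2.74e-06 in limma), or 5.64-fold without background correction.

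BAMBI, a receptor-like protein without a kinase domain that dampens TGF-beta and BMP signalling, gave log2 intensities of 11.82, 11.71 and 11.75 on the knockdown arrays and 10.63, 11.00 and 10.72 on the control arrays, and rose by 0.98 ± 0.12 on the log2 scale, 1.97-fold (adjusted p = 0.000368 in limma). All its knockdown values were above all its control values. CRIM1, a membrane protein that binds BMPs, overlapped between the arms, with 9.20, 8.83 and 8.88 on the knockdown arrays and 8.86, 8.89 and 9.08 on the control arrays, and its log2 change of 0.03 did not pass.

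The 3 measured secreted antagonists of the list of 52 genes were lower in the knockdown arm, and further ones are described below. FSTL3, a follistatin-like protein that binds activin, had log2 intensities of 5.54, 5.62 and 5.61 on the knockdown arrays and 6.61, 6.43 and 6.61 on the control arrays. Its log2 change was -0.97 (adjusted p = 0.00016 in limma), or -0.46 without background correction. FSTL1, a secreted glycoprotein related to follistatin, gave 10.11, 9.94 and 10.10 on the knockdown arrays and 10.61, 10.75 and 10.57 on the control arrays, and fell by 0.59 (adjusted p = 0.00264). Both had arms that did not overlap. GREM1, gremlin, a secreted antagonist that binds BMPs, gave 4.28, 4.29 and 4.39 on the knockdown arrays, where it was not well above background on any array, and 5.14, 5.04 and 5.20 on the control arrays. With background correction its level was at least 1.51-fold lower in the knockdown arm (adjusted p = 0.000399 in limma). Without that correction it was 1.19-fold lower. Of 8 listed antagonists, NOG and FST were not analysed here.

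The 3 ID genes encode helix-loop-helix proteins without a DNA-binding region, which hold other transcription factors in inactive dimers. Of these, ID1 rose and ID2 and ID3 did not pass. ID1 had log2 intensities of 7.75, 8.07 and 8.09 on the knockdown arrays and 6.03, 6.09 and 5.90 on the control arrays. Its raw intensities were 349.8, 310 and 296.2 on the knockdown arrays and 120.4, 172.6 and 122.3 on the control arrays, and neither scale shows any overlap. ID1 rose 3.90-fold, by 1.96 ± 0.13 on the log2 scale (adjusted p = 8.76e-06 in limma), or 2.35-fold without background correction.

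ID3 gave log2 intensities of 6.73, 7.15 and 7.11 on the knockdown arrays and 7.35, 7.29 and 7.33 on the control arrays. Every knockdown value lay below every control value, but knockdown array 1 stood apart from the other two, and the log2 change of -0.33 ± 0.13 did not pass (adjusted p = 0.0796 in limma). ID2 gave 6.63, 6.63 and 6.68 on the knockdown arrays and 6.56, 6.54 and 6.53 on the control arrays, a log2 change of 0.10 that did not pass (adjusted p = 0.443). Its probes disagreed. The dimmer ID2 probe gave 5.77, 5.88 and 5.71 on the knockdown arrays and 6.09, 6.35 and 6.49 on the control arrays, a change of -0.52 that passed among all kept probes (adjusted p = 0.0162), and the mean of both was -0.21. No direction is therefore given for ID2.

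The promoter stretches of the 3 ID genes are set side by side because the genes are paralogues read at different changes. They lie at chr20:31605169-31605308 on the plus strand for ID1, at chr2:8681936-8682075 on the plus strand for ID2 and at chr1:23559482-23559621 on the minus strand for ID3 (GRCh38.p14, RefSeq), each with 120 bases before and 20 after the start, and capitals mark a match to the TEAD core GGAATG, here on the opposite strand.
ID1: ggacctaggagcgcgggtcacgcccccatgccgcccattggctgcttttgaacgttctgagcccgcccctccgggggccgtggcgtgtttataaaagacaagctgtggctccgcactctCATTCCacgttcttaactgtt
ID2: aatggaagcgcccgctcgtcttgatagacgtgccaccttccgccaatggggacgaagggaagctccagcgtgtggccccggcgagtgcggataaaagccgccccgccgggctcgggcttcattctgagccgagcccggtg
ID3: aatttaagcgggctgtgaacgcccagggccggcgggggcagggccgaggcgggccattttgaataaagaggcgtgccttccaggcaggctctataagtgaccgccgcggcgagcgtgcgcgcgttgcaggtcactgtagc
The ID1 stretch holds 1 such match, whose first base is at -1 from the start, and those of ID2 and ID3 hold 0. Such a match is common, since 14% of all promoter windows of 300 bases hold the TEAD core on either strand, and 19.2% hold GGCGCC. Among the called genes, 5 of 37 windows hold the TEAD core (in ID1, TGIF1 and TGIF2) and 12 of 37 hold GGCGCC, where a gene with several annotated starts has several windows. Counted by gene, the TEAD core is in 3 of 18 called genes and in 4 of 14 measured genes that were not called and have a window. GGCGCC is in 10 of the 18 and in 6 of the 14. RefSeq windows were found for 32 of the 35 measured genes, and not for BMP1, SKI and CRIM1.

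**Figure D3:**
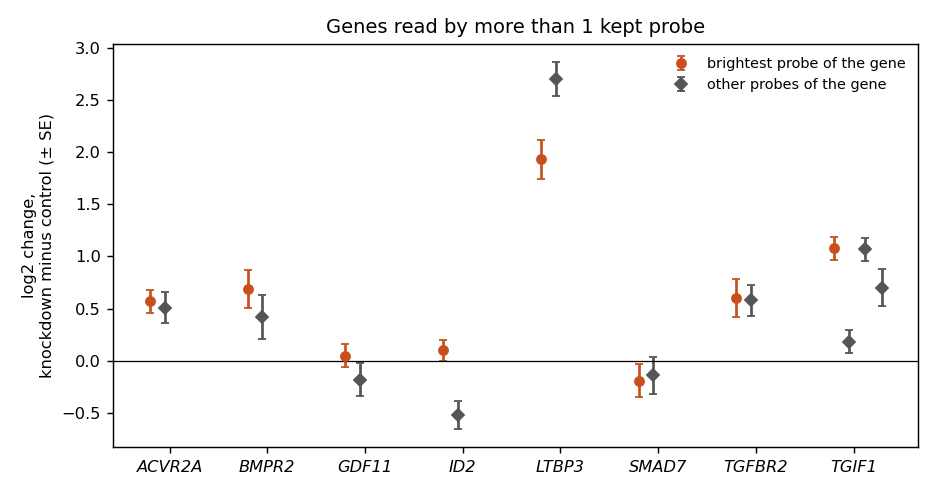
Log2 change, knockdown minus control, with its SE, of the 8 genes with more than 1 kept probe, with the brightest probe as a circle and the others as diamonds. The probes of TGFBR2 and of ACVR2A lie close together, those of ID2 lie on opposite sides of 0, and 1 TGIF1 probe stays at 0.18.

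A further 145 genes of these pathways that are not in the list above were taken from textbook knowledge, with earlier results of these data known. Of these, 75 were measured. Of the 75, 28 rose, 19 fell and 28 did not pass, a share called of 62.7% beside 39.8% over all genes. The choice was not blind to the data, so this share is a description and cannot show an excess. Their median log2 change was 0.20.

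Of 15 measured genes known as TGF-beta and activin targets, 4 rose and 8 fell, a share called of 80% beside 39.8% over all genes. Their median log2 change was -0.47, beside 0.03 over all genes. TGFBI, a matrix protein named for its induction by TGF-beta, fell 5.81-fold (adjusted p = 1.33e-06 in limma). SNAI2, a transcription factor of epithelial-mesenchymal transition, fell to below background on the 3 knockdown arrays. With background correction its brightest probe fell at least 8.96-fold. The fall was 3.24-fold without that correction and 6.64-fold as the mean over both probes. LMCD1, a LIM-domain protein, fell 3.44-fold, or 1.75-fold without background correction. In the other direction, COL3A1, a fibrillar collagen, rose by 6.96 on the log2 scale, the angiopoietin-like protein ANGPTL4 by 2.83 and TSC22D1 by 1.39. ANGPTL4 rose 7.11-fold by its brightest probe and 2.51-fold as the mean over 3 probes, of which another, at a log2 change of 0.29, did not pass. The change of TSC22D1 is that of its brightest probe, and its other probes gave smaller rises of 0.52 and 0.80. For COL3A1 the rise was 40.1-fold without background correction, against 125-fold with it.

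Genes known as BMP targets outside the ID genes were higher in 5 of 7 measured cases and lower in 1. The share called was 85.7%, beside 39.8% over all genes. Their median log2 change was 0.59, beside 0.03 over all genes. Whether this list differs from that of the TGF-beta and activin targets was not tested. ATOH8, a helix-loop-helix factor, was below background on the 3 control arrays. It rose at least 3.78-fold with background correction and 1.78-fold without it. GATA3 and SOX9, transcription factors of development, rose by 0.86 and 0.59 on the log2 scale. HEY1, a repressor that Notch signalling also induces, fell by 0.70, and its second probe gave -0.21 and did not pass (adjusted p = 0.375).

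Of 7 further secreted antagonists, 3 rose and 2 fell, a share called of 71.4% beside 39.8% over all genes. BMPER, a secreted BMP-binding protein, fell 5.54-fold (adjusted p = 1.65e-06 in limma) and was detected on 1 of the 3 knockdown arrays, with a fall of 2.09-fold without background correction. Its knockdown values of 4.60, 4.49 and 4.42 on the log2 scale lay near background, beside 6.82, 7.12 and 6.98 on the control arrays. CHRDL1, a chordin-like BMP antagonist, fell by 0.54 on the log2 scale. FSTL5, a follistatin-like protein, was below background on the control arrays. It rose at least 5.3-fold with background correction and 2.18-fold without it. BGN, a small proteoglycan that binds TGF-beta, rose 2.15-fold (1.38-fold without background correction), and NBL1, a DAN-family BMP antagonist, by 0.70 on the log2 scale.

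Of 8 measured genes of latent TGF-beta storage and activation or of BMP1-linked collagen processing, 4 rose and 1 fell. The share called was 62.5%, beside 39.8% over all genes. THBS1, thrombospondin 1, which can activate latent TGF-beta, fell 2.49-fold (adjusted p = 0.000143 in limma). PCOLCE, which enhances procollagen cleavage by BMP1, rose 9.93-fold, or 6.04-fold without background correction. The integrin subunits ITGB5 and ITGAV, which form a receptor that binds latent TGF-beta, rose by 1.24 and 0.68 on the log2 scale, and ITGB5 did so with each of its 3 probes.

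Inside the cell, 6 of 16 measured SMAD adaptors and turnover genes rose and 3 fell. The share called was 56.2%, beside 39.8% over all genes. CTDSP1, a phosphatase of SMADs, rose by 0.90 and PPM1A, a phosphatase of the same group of targets, by 0.85 on the log2 scale, whereas the other 4 PPM1A probes gave 0.08 to 0.34 and did not pass, as did a second CTDSP1 probe at 0.32. STUB1, a ubiquitin ligase, rose by 0.63. CTDSPL, a phosphatase related to CTDSP1, fell by 1.20, NEDD4L, a ubiquitin ligase that marks SMAD2 and SMAD3, by 0.71 and STRAP, a receptor-associated protein, by 0.49. The call of NEDD4L ended without knockdown array 2 or 3 or control array 1, with an adjusted p of up to 0.204 over all settings.

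Of 10 SMAD cofactors 6 rose and 1 fell, a share called of 70% beside 39.8% over all genes. RUNX1, a transcription factor that partners SMADs, rose by 0.81, the acetyltransferase CREBBP by 0.79 and LEMD3, a nuclear membrane protein that binds SMADs, by 0.78 on the log2 scale. RUNX3 fell by 1.17. Of 3 co-receptors RGMB, a BMP co-receptor, fell by 0.85, and the other two did not pass, a share called of 33.3%. Of 8 genes of non-SMAD signalling 2 fell and 0 rose, a share called of 25%, below the 39.8% over all genes. MAP3K1, a kinase, fell by 1.03 and DAXX by 0.39, and DAXX missed the threshold without control array 3. The other ligands BMP3 and BMP8B did not pass, both near background. With median scaling over all probes, 14 of the 32 called genes named from these further lists missed the threshold (SOX9, HEY1, CHRDL1, NBL1, ITGAV, PPM1A, STUB1, STRAP, NEDD4L, RUNX1, CREBBP, LEMD3, RGMB and DAXX).

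**Figure D4:**
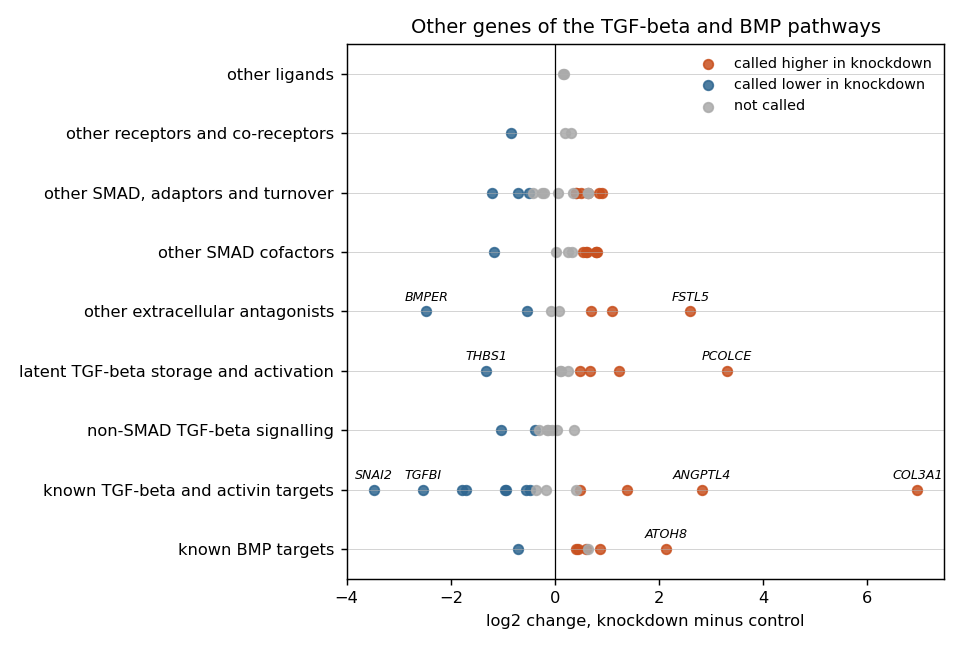
Log2 change, knockdown minus control, of the measured further pathway genes, 1 point per gene and 1 row per list (SMAD9 stands in 2 rows). Known BMP targets lie mostly right of 0, from -0.70 to 2.13, and known TGF-beta and activin targets spread from -3.48 to 6.96.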

How the data were processed

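The deposited table of signals holds 1 linear intensity per probe and array, not normalized per the file headers. Beside each stands a detection p-value, per the file headers. Of its 48202 lines, 887 had no probe identifier and were left out. The authors also deposited log2 values. These cover 20348 probes, exactly those with a detection p-value under 0.05 on 3 or more of 6 arrays. They differ from those computed here by a median of 0.000186 and at most 0.0238, so the table is uncentred, with column medians of 6.257 to 6.262. Per the submitters' processing notes, limma was used, with no version given. Not given in the sources used here are the scanner software and the genome build.

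Intensities were background-corrected by normexp from the detection p-values (offset 16), then quantile-normalized on the log2 scale, with the neqc function of limma 3.58.1 in R 4.3.3. Symbols came from the platform annotation supplied for the probes of the log2 table. It gave 1 symbol to 15493 of them, several to 4, and did not list 4851. The brightest kept probe stood for a gene, which left 11646 genes. Arms were compared with lmFit and eBayes with group as the only term, two-sided, with Benjamini-Hochberg adjustment over all genes, and the step was tested on simulated data. SE is that of the fit. A probe detected on 0 arrays of an arm gives only a bound there, written as at least N-fold. Such a bound holds only within this background correction. The number of arrays limits the precision.

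Columns were assigned by name. The deviations from the arm mean correlated at 0.627, 0.27 and 0.467 between arrays of the same number, each over 0.1, so a fit with the number as a replicate block was run. Unlike numbers correlated too, at 0.378 for knockdown array 2 with control array 3 and 0.222 for knockdown array 3 with control array 2. Arrays numbered 1 gave -0.575 to -0.331 with those of other numbers in the opposite arm. The values set arrays numbered 1 apart, but do not single out a pairing of arrays 2 and 3 by number. The labels do not say what a number shares. The genes and lists were chosen with earlier results of these data known. All 52 genes are accounted for and every called one is named. Per-array values go to called genes with a log2 change of 1 or more, to the 4 largest called changes of a class where fewer reach 1, and to the ID genes. Those of GDF11, LTBP4, ACVR1, SMAD2, SMAD5, SMAD7, CRIM1 and BMPER were added outside this rule, after their values were seen. The per-array values of FSTL1 also fall outside this rule. From each further list up to 3 called genes per direction, those with the largest change, are named. Further marker genes were used for the check of the cell line. Alternatives covered background correction, scaling, filter, probe choice, moderation, the block, the deposited log2 values and leaving out arrays.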

Additional observations from a re-analysis of the deposited data

How the results depend on the processing

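Of the alternatives, median scaling over all probes moved the counts most. It called 1236 genes in all against 4638, 5 genes of the list higher and 1 lower, and 10 of the further pathway genes higher and 10 lower, and the share of calls that were higher over all genes was 44.4% against 51.1%; the cause was not tested. The filter could not be relaxed at gene level, because only kept probes carry symbols. With the array number as a replicate block, 5624 genes were called, 14 of the list higher and 5 lower, and YAP1 changed by -1.51 (log2); besides LTBP4 the block changed no call in the list. Without 1 array, genes called ranged from 3519 to 4291, list genes higher from 10 to 13 and lower from 4 to 5. Without both arrays numbered 1, chosen after the data were seen, 14 list genes were higher and 4 lower, with BMP1, LTBP4 and SKIL gained and ACVR1B, LTBP2 and TGFBR2 lost. Some genes that were never called changed sign. GDF11 gave -0.07 and ID2 -0.21 with the mean of probes, TGFBR3 ranged from -0.10 to 0.26 without 1 array and gave -0.04 without both arrays numbered 1. Without 1 array ENG ranged from -0.06 to 0.26, SKI from -0.12 to 0.22 and CRIM1 from -0.09 to 0.10. CRIM1 gave -0.13 without both arrays numbered 1 and -0.01 with median scaling over the probes detected on every array. Signal over background limits SKIL, SMURF1 and SMURF2, detected on 4, 3 and 3 of the 6 arrays.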
